A study of Homo sapiens with 8 samples.

Results

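Keratins are the intermediate filament proteins of epithelial cells. Each filament is built from pairs of a type II and a type I keratin, so the genes are usually described as partners: KRT5 with KRT14 in basal cells, KRT6A and KRT6B with KRT16 and KRT17 in wounded, cultured or otherwise activated epithelium, and KRT8 with KRT18 in simple and luminal epithelium. KRT15 is a type I keratin of basal cells, and KRT19 a small type I keratin of luminal and simple cells. The 10 genes described here, the basal and activation keratins KRT5, KRT14, KRT15, KRT17, KRT6A, KRT6B and KRT16 and the simple keratins KRT8, KRT18 and KRT19, were chosen by name out of 25166 in the deposited table. All 14 of their transcripts, of 48175 in the table, were read.

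RNA was sequenced from HMLE cells, an immortalized mammary epithelial line of human origin, transduced with lentivirus and grown under puromycin at 0.5 µg/mL. The 4 groups, of 2 libraries each, were cells with 1 shRNA against SOX4 given TGF-β for 16 h, the same cells untreated, cells with a scrambled shRNA (SHC002) given TGF-β for 16 h, and these cells untreated. SOX4 is a transcription factor of the SoxC family, and TGF-β a cytokine that drives epithelial-mesenchymal transition in such cells. All groups carry a lentiviral shRNA and are 1 cell line, and the knockdown rests on a single shRNA. Nothing in the labels makes the 2 libraries per group separate cultures, so p-values measure the spread between these libraries, which may be technical.

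Values are FPKM, read numbers scaled by transcript length and by library size. In many cells of the table the decimal mark was lost, which leaves readings 10 or 100 times apart. These were settled from the whole numbers of reads behind the values. Where several readings were whole, the more probable one given the other libraries was taken. The libraries had a scale of 12.6 M to 16.8 M reads. SOX4 checked the labels. It stood at 2.37 and 1.88 FPKM in TGF-β-treated and 0.923 and 1.02 FPKM in untreated SOX4-shRNA cells, against 18.7 and 17.6 FPKM in TGF-β-treated and 8.74 and 8.04 FPKM in untreated scrambled-shRNA cells. The label of epithelial cells was met by the epithelial adhesion genes, with EPCAM between 55.8 and 114 FPKM and CDH1 between 74.1 and 95.4 FPKM over the 8 libraries. The leukocyte gene PTPRC reached at most 0.0167 FPKM, and the endothelial gene CDH5 was listed at 0 in all 8.

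The genes lie in the 2 keratin clusters of the genome. Coordinates are given on GRCh37, the assembly also called hg19. On chromosome 12, KRT6B (52840435 to 52845930), KRT6A (52880960 to 52887041), KRT5 (52908359 to 52914314) and KRT8 (53290971 to 53343738) are on the minus strand, and KRT18 (53342655 to 53346690) is on the plus strand. On chromosome 17, all on the minus strand, are KRT15 (39669997 to 39678781), KRT19 (39679869 to 39684560), KRT14 (39738531 to 39743147), KRT16 (39766030 to 39772151) and KRT17 (39775694 to 39781094). KRT5, KRT6A and KRT6B have 9 exons, KRT8, KRT14, KRT15, KRT16 and KRT17 have 8, KRT18 has 7 and KRT19 has 6. Exons of KRT17 are overlapped by a gene on the opposite strand (ENSG00000289252), and exons of KRT18 by KRT8 on the opposite strand and by AC107016.2 on its own. Whether the counting used strand is not given in the sources used here, so KRT17 and KRT18 are uncertain to that extent.

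Neighbouring keratins are close copies, which bears on how well a 75-nt read can be placed. The last 75 coding bases of the first coding exon are shown for KRT14, KRT16 and KRT17 because they are the same stretch in each gene. They lie at chr17:39742562-39742636, chr17:39768410-39768484 and chr17:39780330-39780404 on the minus strand of GRCh37. Capitals mark the bases that are not the same in all 3 genes.
KRT14: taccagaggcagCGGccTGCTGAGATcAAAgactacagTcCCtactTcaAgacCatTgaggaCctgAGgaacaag
KRT16: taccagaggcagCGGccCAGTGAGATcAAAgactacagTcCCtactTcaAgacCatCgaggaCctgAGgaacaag
KRT17: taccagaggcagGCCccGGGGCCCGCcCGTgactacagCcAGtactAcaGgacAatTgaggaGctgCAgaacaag

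In this stretch KRT14 and KRT16 differ at 4 of 75 bases, whereas KRT17 differs from KRT14 at 23 and from KRT16 at 24. Over the whole transcript, the share of 75-nt windows found unchanged in another keratin gene or pseudogene was 34.6% for KRT6B, 26.2% for KRT6A, 18.8% for KRT8, 9.60% for KRT16, 9.28% for KRT14, 6.50% for KRT18, 3.12% for KRT17 and 2.77% for KRT5. No window of KRT15 or KRT19 was shared. How the counting placed such reads is not given in the sources used here, so the KRT6A and KRT6B values in particular are uncertain.

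**Figure D1:**
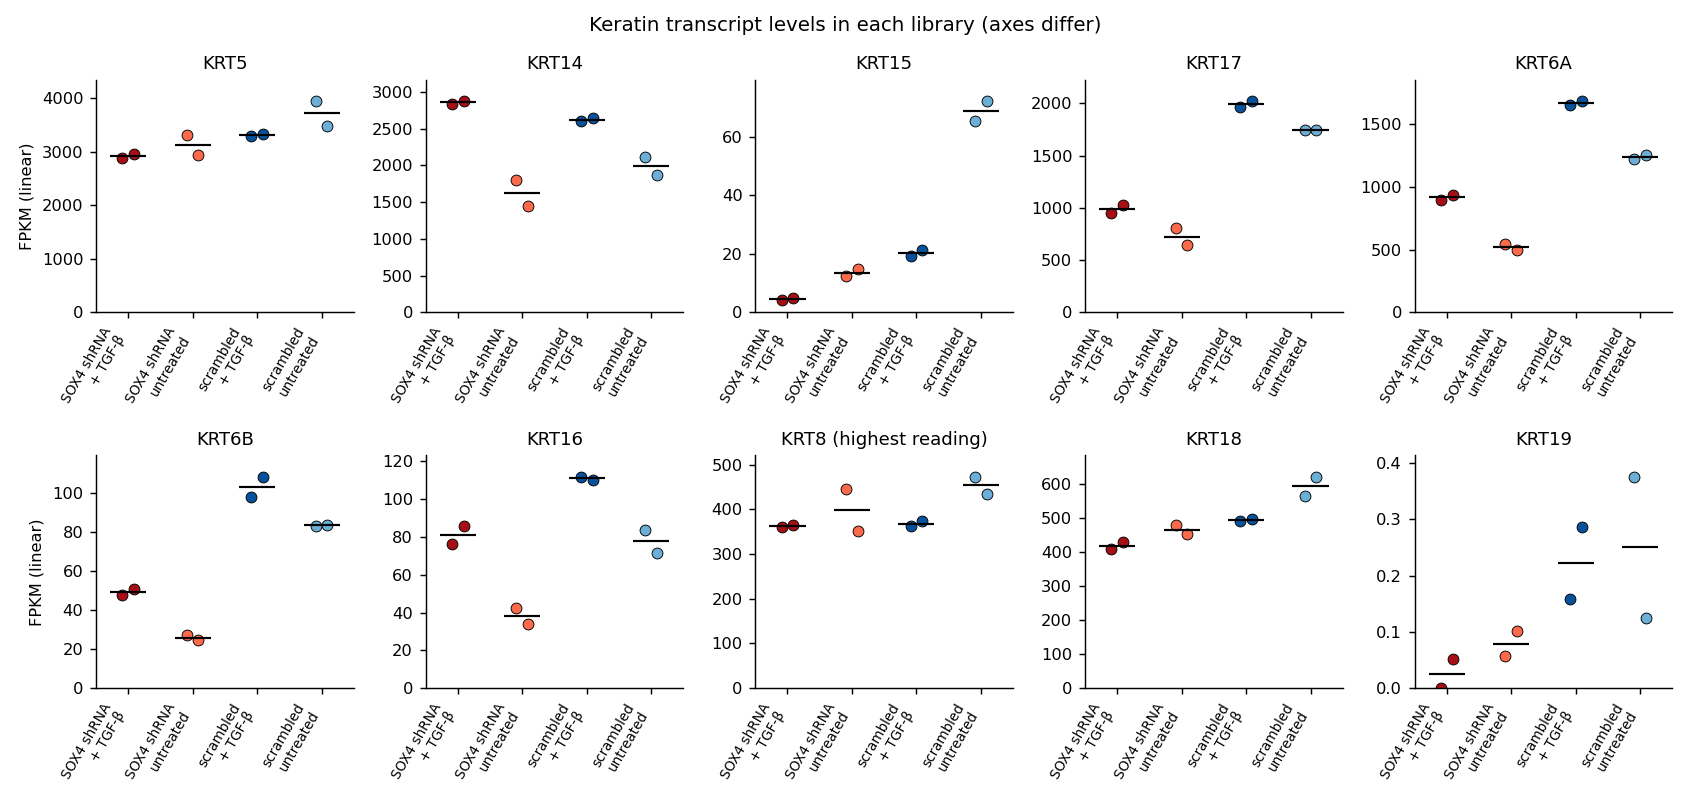
FPKM of the 10 keratins by library, shown as points, with lines at the group means, on linear axes that start at 0 and differ between panels. KRT15 was lowest in TGF-β-treated SOX4-shRNA cells (4.41 and 4.87 FPKM) and highest in untreated scrambled-shRNA cells (65.4 and 72.2 FPKM), while KRT17, KRT6A and KRT6B were lower in all 4 SOX4-shRNA libraries than in all 4 scrambled ones. KRT8 is drawn at the highest of its 3 possible readings, and KRT18 as its transcript NM_199187.

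KRT5, the type II keratin of basal cells, was the most abundant of the members whose level could be settled in every group. It averaged 2918 ± 45.6 FPKM in TGF-β-treated and 3121 ± 256 FPKM in untreated SOX4-shRNA cells, against 3315 ± 28.3 FPKM in TGF-β-treated and 3711 ± 330 FPKM in untreated scrambled-shRNA cells (SD, n = 2 each). The next 4 in level were KRT14, KRT17, KRT6A and KRT18, in this order in all 4 groups and with no overlap between the libraries of neighbours. KRT6B, KRT16 and KRT15 followed. In untreated scrambled-shRNA cells they had 83.4 ± 0.141, 77.6 ± 8.77 and 68.8 ± 4.80 FPKM, and KRT16 overlapped both of the others, which did not overlap each other, whereas in the other 3 groups KRT16 stood above KRT6B and KRT6B above KRT15 without overlap. This order holds for the readings used. For KRT17 in untreated and KRT15 in TGF-β-treated SOX4-shRNA cells another reading was tried, given with their changes. Readings 10 times higher were also whole reads for other values and were not tried. KRT15 would stand at 194 and 212 FPKM in TGF-β-treated scrambled-shRNA cells. KRT16 would stand at 425 and 341 FPKM in untreated SOX4-shRNA cells, and KRT6B at 480 and 509 FPKM in TGF-β-treated SOX4-shRNA cells. Each would turn the sign of a called change. The readings used for these genes held posteriors of at least 0.9912.

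Changes were tested with limma on log2(FPKM + 1), in 1 fit of the 4 groups over genes with 1 transcript in the table, at a Benjamini-Hochberg adjusted p under 0.05. A log2 fold change on this scale understates the change of low genes. Where libraries of a member are said to lie apart, how many of all genes did so was not counted. The fit held 7 members, KRT5, KRT14, KRT15, KRT17, KRT6A, KRT6B and KRT16. All 7 passed the filter of at least 1 FPKM in at least 2 libraries, as did KRT8 and KRT18, which have several transcripts. KRT18 was read from a second fit of all 12012 kept genes, KRT8 was not tested because its readings could not be settled, and KRT19 did not pass the filter.

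The first comparison was of SOX4-shRNA with scrambled-shRNA cells, both untreated. KRT15, KRT17, KRT6A, KRT6B and KRT16 fell, to between 0.198 and 0.493 of their mean FPKM in scrambled-shRNA cells, while KRT5 and KRT14, the abundant basal pair, did not pass the test. The 5 falls among the 7 fitted members stand beside 3.32% of genes lower (and 0.938% higher) among the 5117 tested. The median log2 fold change was -1.25 over the 7 members and -0.01 over all genes tested. In bulk RNA, fewer cells of a kind and less RNA per cell cannot be told apart.

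KRT15 fell most of the 7. Untreated SOX4-shRNA cells held 12.6 and 14.7 FPKM, against 65.4 and 72.2 FPKM in untreated scrambled-shRNA cells, with 286 and 374 reads against 1799 and 1494. Both knockdown libraries thus lay far below both scrambled ones, and the log2 fold change was -2.26 ± 0.12 (SE; limma adjusted p = 0.000139). SOX4 itself had -2.25 ± 0.12 in the same contrast. Only 0.0586% of the genes tested had a lower value than KRT15.

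The activation keratins fell together. KRT6B, a type II keratin, stood at 27.3 and 24.4 FPKM in untreated SOX4-shRNA cells, against 83.3 and 83.5 FPKM in untreated scrambled-shRNA cells (-1.65 ± 0.11, limma adjusted p = 0.000269). Its close copy KRT6A stood at 541 and 498 FPKM, against 1219 and 1253 FPKM (-1.25 ± 0.09, adjusted p = 0.00042). For both genes the groups were well apart, and the spread within a group was small beside the difference. KRT16, a type I partner of the KRT6 proteins, stood at 42.5 and 34.1 FPKM in untreated SOX4-shRNA cells, against 83.8 and 71.4 FPKM in untreated scrambled-shRNA cells (-1.0 ± 0.14, limma adjusted p = 0.010). Without untreated scrambled replicate 1 the KRT16 value was -0.89 (adjusted p = 0.0878), and the second fit gave it an adjusted p of 0.0509.

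KRT17, a type I keratin of basal and activated cells, stood at 807 and 642 FPKM in untreated SOX4-shRNA cells, against 1747 and 1750 FPKM in untreated scrambled-shRNA cells. The 2 scrambled libraries were nearly equal and both far above the knockdown ones (-1.28 ± 0.12, limma adjusted p = 0.00186). Whole reads alone did not settle the reading of the 2 knockdown libraries. Their read numbers, 15390 and 13660, can both be divided by 10, so that 80.7 and 64.2 FPKM would be whole reads too. The higher reading was taken as the more probable one given the levels in the other 3 groups. At the lower one the log2 fold change would be -4.58, so the direction does not rest on this choice.

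KRT5 stood at 3302 and 2940 FPKM in untreated SOX4-shRNA cells, against 3945 and 3478 FPKM in untreated scrambled-shRNA cells. Its libraries did not overlap, but the difference of -0.25 ± 0.11 did not pass (limma adjusted p = 0.265). KRT14, its type I partner, stood at 1800 and 1446 FPKM, against 2106 and 1868 FPKM (-0.30 ± 0.13, adjusted p = 0.262). Both KRT14 libraries with SOX4 shRNA also lay below both scrambled ones. A p that misses the threshold does not show that the 2 genes were unchanged.

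**Figure D2:**
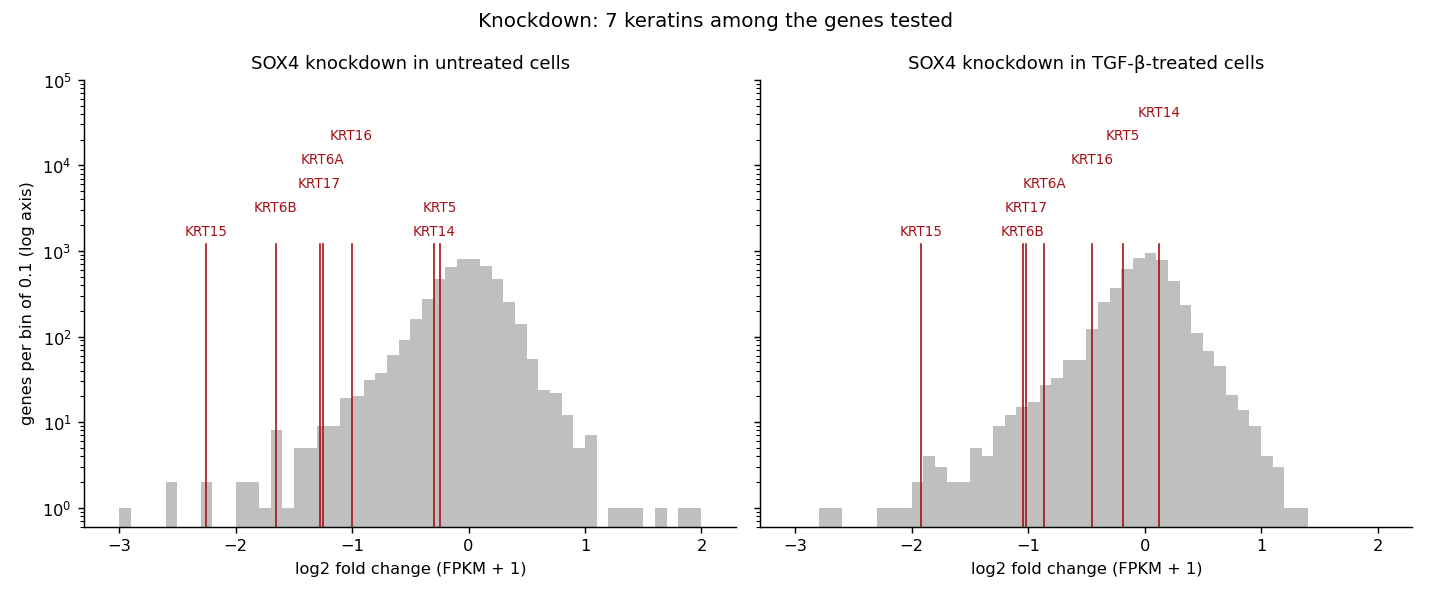
Number of genes (log axis) by log2 fold change for knockdown in untreated cells (left) and in TGF-β-treated cells (right), with the 7 fitted keratins as red lines. KRT15 lies at -2.26 and -1.92, KRT6B at -1.65 and -1.05, and KRT5 and KRT14 lie within the bulk of the genes in both panels.

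The same comparison in TGF-β-treated cells gave falls of KRT15, KRT17, KRT6A and KRT6B, 4 of the 7, beside 2.89% of 5119 genes lower and 1.11% higher. The median was -0.86 over the members and 0.01 over all genes. No member rose.

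KRT15 stood at 4.41 and 4.87 FPKM in TGF-β-treated SOX4-shRNA cells, against 19.4 and 21.2 FPKM in TGF-β-treated scrambled-shRNA cells (-1.92 ± 0.12, limma adjusted p = 0.00037). The knockdown libraries held 101 and 121 reads, and their reading had a posterior of 0.9912. At the reading 10 times higher, 44.1 and 48.7 FPKM, the sign would turn (1.15, adjusted p = 0.00309). This fall and the response of KRT15 to TGF-β in SOX4-shRNA cells therefore rest on the reading of these 2 values.

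KRT17 stood at 947 and 1027 FPKM in TGF-β-treated SOX4-shRNA cells, against 1966 and 2024 FPKM in TGF-β-treated scrambled-shRNA cells (-1.02 ± 0.12, limma adjusted p = 0.00524). KRT6A stood at 897 and 936 FPKM, against 1652 and 1683 FPKM (-0.86 ± 0.09, adjusted p = 0.00318). KRT6B stood at 48.0 and 50.9 FPKM, against 98.0 and 108 FPKM (-1.05 ± 0.11, adjusted p = 0.00277). All 3 were lower in both knockdown libraries. The KRT17 call was lost without TGF-β-treated scrambled replicate 1 or 2 (adjusted p = 0.0667 and 0.0765) and in the second fit (0.0802), the KRT6A call under the same 3 settings (0.0609, 0.0622 and 0.0608), and the KRT6B call without TGF-β-treated scrambled replicate 2 (0.0528).

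KRT16 stood at 76.3 and 85.7 FPKM in TGF-β-treated SOX4-shRNA cells, against 112 and 110 FPKM in TGF-β-treated scrambled-shRNA cells, without overlap, and did not pass (-0.45 ± 0.14, limma adjusted p = 0.153). For KRT5 the values were 2886 and 2951 FPKM, against 3295 and 3335 FPKM (-0.18 ± 0.11, adjusted p = 0.458). KRT14 was the only fitted member with a positive estimate, 2837 and 2875 FPKM against 2596 and 2649 FPKM (0.12 ± 0.13, adjusted p = 0.715).

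Genes of other cell types were read beside these falls. Of the 7 fibroblast markers examined, 5 could be summed, to 15.1 to 17.7 FPKM in TGF-β-treated and 8.87 to 13.2 FPKM in untreated SOX4-shRNA cells, against 24.2 to 25.5 FPKM in TGF-β-treated and 18.2 to 22.3 FPKM in untreated scrambled-shRNA cells. The sum was thus lower in all 4 knockdown libraries, as were KRT17, KRT6A and KRT6B, but its genes went both ways. COL1A2 and COL3A1 were lower in all 4, whereas FBLN1 stood at 9.5 and 11.5 FPKM in TGF-β-treated and 10 and 5.83 FPKM in untreated SOX4-shRNA cells, against 8.76 and 6.6 FPKM in TGF-β-treated and 9.64 and 5.9 FPKM in untreated scrambled-shRNA cells. Of the markers summed, LUM and PDGFRA reached at most 0.105 and 0.103 FPKM in any library, the sum being made of the other 3. The reading of MFAP5 was open, with 32.5 and 36 FPKM in TGF-β-treated SOX4-shRNA cells, against 4 and 2.51 FPKM in scrambled-shRNA cells, at the reading used. That of DCN was open in 1 library. Leaving out values with a lost mark, DCN came to 0.231 and 0.177 FPKM in TGF-β-treated and 0.362 and 0.156 FPKM in untreated SOX4-shRNA cells. In scrambled-shRNA cells it came to 0.975 and 0.936 FPKM with TGF-β and 0.313 and 1.1 FPKM untreated. The part of these genes in the keratin differences was not tested.

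TGF-β was then compared with no treatment within each kind of cell. In SOX4-shRNA cells KRT14, KRT6A, KRT6B and KRT16 rose and KRT15 fell, which is 4 and 1 of the 7 beside 5.75% of 5114 genes higher and 2.07% lower. In scrambled-shRNA cells KRT6A rose and KRT15 fell, beside 4.71% of 5118 genes higher and 2.17% lower. The medians over the 7 members were 0.82 and 0.30, and over all genes -0.04 in both.

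KRT16 had the largest rise among the members in SOX4-shRNA cells, with 76.3 and 85.7 FPKM with TGF-β, against 42.5 and 34.1 FPKM untreated (1.07 ± 0.14, limma adjusted p = 0.00513). KRT6B stood at 48.0 and 50.9 FPKM with TGF-β, against 27.3 and 24.4 FPKM untreated (0.91 ± 0.11, adjusted p = 0.00342). KRT6A stood at 897 and 936 FPKM, against 541 and 498 FPKM (0.82 ± 0.09, adjusted p = 0.00287). In each case both treated libraries lay above both untreated ones, at 1.77 to 2.12 times the untreated mean.

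KRT14 in SOX4-shRNA cells stood at 2837 and 2875 FPKM with TGF-β, against 1800 and 1446 FPKM untreated (0.82 ± 0.13, limma adjusted p = 0.00869). This call was lost without a filter on low values (adjusted p = 0.0833), with only the 2 groups compared (0.0593) and in the second fit (0.122). KRT17 stood at 947 and 1027 FPKM, against 807 and 642 FPKM, and did not pass (0.45 ± 0.12, adjusted p = 0.0685). It passed without untreated SOX4-shRNA replicate 1 (0.62, adjusted p = 0.0279) and with readings made without whole reads (adjusted p = 0.0429). At the reading of untreated SOX4-shRNA cells 10 times lower it would be 3.76 (limma adjusted p = 7.14e-06), so whether KRT17 passed rests on that reading.

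KRT15 went the other way. TGF-β-treated SOX4-shRNA cells held 4.41 and 4.87 FPKM, against 12.6 and 14.7 FPKM untreated (-1.37 ± 0.12, limma adjusted p = 0.000992, or 1.70 at the reading 10 times higher). In scrambled-shRNA cells the reading with TGF-β had a posterior of 0.9999. There KRT15 stood at 19.4 and 21.2 FPKM with TGF-β, against 65.4 and 72.2 FPKM untreated (-1.71 ± 0.12, limma adjusted p = 0.00074). No gene tested had a lower value in that contrast.

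Among the other members in scrambled-shRNA cells, KRT6A stood at 1652 and 1683 FPKM with TGF-β, against 1219 and 1253 FPKM untreated (0.43 ± 0.09, limma adjusted p = 0.0354). The call was lost when any of these 4 libraries was left out (adjusted p of 0.141 to 0.28), without a filter (0.131) or an intensity trend (0.052), with a block on the replicate number (0.0901) and in the second fit (0.18). KRT16 (0.51 ± 0.14, adjusted p = 0.069), KRT14 (0.40 ± 0.13, adjusted p = 0.0989), KRT6B (0.30 ± 0.11, adjusted p = 0.143) and KRT17 (0.19 ± 0.12, adjusted p = 0.402) had positive estimates that did not pass, but not under every setting. KRT16 passed without untreated SOX4-shRNA replicate 1 or 2 (adjusted p = 0.0494 and 0.0497), with median ratio scaling (0.0489) and with only the 2 groups compared (0.0188), and KRT14 with only the 2 groups compared (0.0303). For all 4 both treated libraries lay above both untreated ones, but how many of all genes did so was not counted. Calls of these genes under the crossed block, a setting added later, are given with it at the end. KRT5 had -0.09 ± 0.11 in SOX4-shRNA cells and -0.16 ± 0.11 in scrambled-shRNA cells (limma adjusted p = 0.646 and 0.406).

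**Figure D3:**
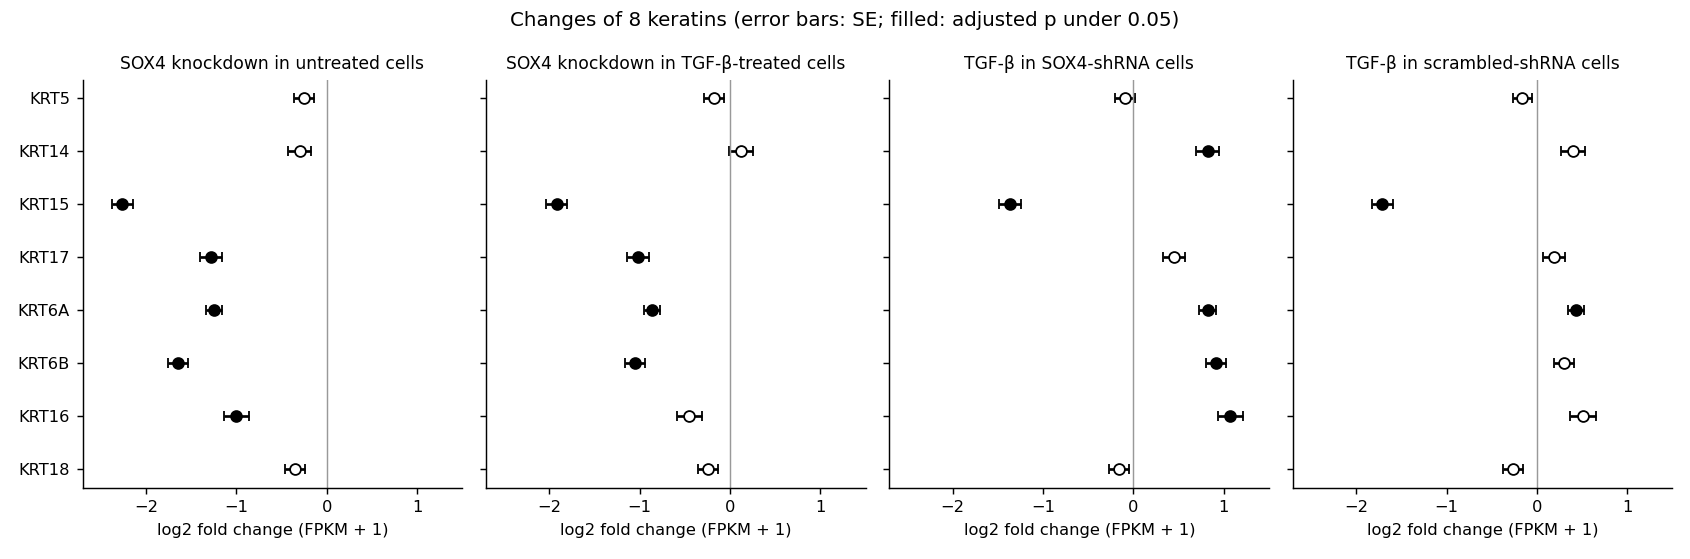
Log2 fold change of FPKM + 1 with its SE for 8 keratins in the 4 comparisons, with filled points where the adjusted p was under 0.05. KRT18 is from the second fit. On knockdown KRT15, KRT17, KRT6A and KRT6B were called in both panels, and with TGF-β KRT15 was negative where KRT14, KRT6A, KRT6B and KRT16 were positive.

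Whether TGF-β acted differently with SOX4 reduced was tested as the interaction of knockdown and treatment. All 7 estimates were positive, from 0.07 ± 0.15 for KRT5 to 0.61 ± 0.15 for KRT6B, and none passed at the readings used. The median was 0.39 over the 7 members and 0.01 over all genes tested. KRT6B had an unadjusted p of 0.00465 and an adjusted p of 0.998 (limma). Next were KRT16 (0.55 ± 0.20), KRT14 (0.42 ± 0.18), KRT6A (0.39 ± 0.13), KRT15 (0.34 ± 0.17) and KRT17 (0.26 ± 0.18), all with an adjusted p of 0.998. Of 5107 genes tested 0 were called (0%), 141 had an unadjusted p under 0.05, and the second fit called 19 of 12012 (0.158%). The values of KRT15 and KRT17 depend on the readings named above. At the other reading they would be 3.41 and 3.57 and would both pass (limma adjusted p = 0.000202 and 0.000149). The larger number of calls with TGF-β in SOX4-shRNA cells is therefore not shown to be a difference between the 2 kinds of cell. The 2 treatment comparisons and the 2 knockdown comparisons share libraries, so they are not independent.

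Ratios within a library do not depend on its scaling, and that of KRT5 to KRT14 shows the balance of partners. KRT5 to KRT14 was 1.02 to 1.03 in TGF-β-treated and 1.83 to 2.03 in untreated SOX4-shRNA cells, against 1.26 to 1.27 in TGF-β-treated and 1.86 to 1.87 in untreated scrambled-shRNA cells. The 4 treated libraries thus all had a lower ratio than the 4 untreated ones. KRT17 to KRT14 was 0.334 to 0.357 in TGF-β-treated and 0.444 to 0.448 in untreated SOX4-shRNA cells, against 0.757 to 0.764 in TGF-β-treated and 0.83 to 0.937 in untreated scrambled-shRNA cells. Here the groups separated by shRNA. At the other KRT17 reading the ratio in untreated SOX4-shRNA cells would be 10 times lower still. KRT14 to KRT15 ran over a wider range, with 590 to 643 in TGF-β-treated and 98.3 to 143 in untreated SOX4-shRNA cells, against 125 to 134 in TGF-β-treated and 25.9 to 32.2 in untreated scrambled-shRNA cells. At the other KRT15 reading the ratio in TGF-β-treated SOX4-shRNA cells would be 10 times lower, below that of the same cells untreated.

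The close copies KRT6A and KRT6B did not keep a fixed ratio. It was 18.4 to 18.7 in TGF-β-treated and 19.8 to 20.4 in untreated SOX4-shRNA cells, against 15.5 to 16.9 in TGF-β-treated and 14.6 to 15 in untreated scrambled-shRNA cells, higher in all 4 knockdown libraries. These ratios are descriptions and were not tested.

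**Figure D4:**
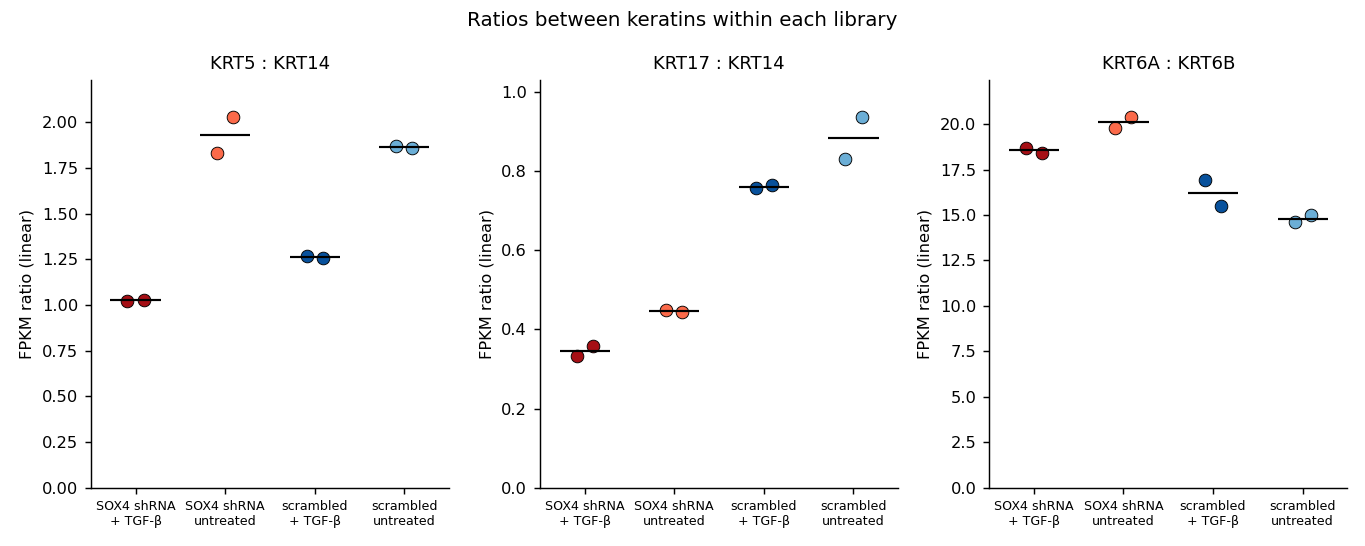
Ratio of FPKM between keratins by library, shown as points, with lines at the group means, on linear axes from 0. KRT5 to KRT14 is lowest in TGF-β-treated SOX4-shRNA cells (1.02 to 1.03), and KRT17 to KRT14 is under 0.5 only in the 4 SOX4-shRNA libraries.

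Of the simple keratins 1 could be tested, and it showed no called change. KRT18, the type I keratin of simple epithelium, was represented by its transcript NM_199187, with 408 and 429 FPKM in TGF-β-treated and 479 and 454 FPKM in untreated SOX4-shRNA cells, against 491 and 498 FPKM in TGF-β-treated and 565 and 622 FPKM in untreated scrambled-shRNA cells. Untreated scrambled-shRNA cells were thus highest and TGF-β-treated SOX4-shRNA cells lowest. Knockdown gave -0.35 ± 0.11 in untreated cells and -0.24 ± 0.11 in TGF-β-treated cells (limma, second fit, adjusted p = 0.26 and 0.479), beside 1.12% and 1.02% of 12012 genes called in that fit. TGF-β gave -0.16 ± 0.11 in SOX4-shRNA cells and -0.26 ± 0.11 in scrambled-shRNA cells (adjusted p = 0.564 and 0.311), beside 2.02% and 1.67% of genes called. The level of the other transcript, NM_000224, stayed unsettled in 2 libraries. With both transcripts read as whole reads at lengths of 1421 and 1467 nt, the closest solution (summed distance from whole reads 0.021), it stood at 3.11 and 1.45 FPKM in TGF-β-treated and 6.28 and 0 FPKM in untreated SOX4-shRNA cells, against 1.47 and 0 FPKM in TGF-β-treated and 11.9 and 1.73 FPKM in untreated scrambled-shRNA cells. With a length of 1878 nt for NM_000224 (summed distance 0.057) it would stand at 311 FPKM in replicate 1 of the TGF-β-treated and 628 FPKM in replicate 1 of the untreated SOX4-shRNA cells. The values for KRT18 given here are therefore those of NM_199187 alone.

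The level of KRT8, the type II partner of KRT18, could not be settled. At the highest reading its transcript NM_002273 stood at 361 and 364 FPKM in TGF-β-treated and 446 and 352 FPKM in untreated SOX4-shRNA cells, against 362 and 374 FPKM in TGF-β-treated and 473 and 435 FPKM in untreated scrambled-shRNA cells, and readings 10 or 100 times lower are also possible, the posterior of the highest being 0.3516. If all 8 libraries share the reading, the ratio of group means does not depend on it. Knockdown then gave ratios of 0.985 with TGF-β and 0.879 without, and TGF-β gave 0.908 in SOX4-shRNA cells and 0.811 in scrambled-shRNA cells. Libraries overlapped in all of these but the last. The transcript NM_001256282 had the same open factor, at 159 to 229 FPKM by the highest reading, NR_045962 stood at 20.4 to 50.2 FPKM, and NM_001256293 was at 0.

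KRT19 was barely detected. It had 0 and 0.0520 FPKM in TGF-β-treated and 0.0567 and 0.102 FPKM in untreated SOX4-shRNA cells, against 0.159 and 0.287 FPKM in TGF-β-treated and 0.376 and 0.125 FPKM in untreated scrambled-shRNA cells. These values stand for 0 to 8 reads per library. Each of the 4 libraries with SOX4 shRNA was lower than each of the 4 with scrambled shRNA, at read numbers too low for the filter. No difference was tested, and how many of all genes separated in this way was not counted.

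Other keratins were few. Of 41 further keratin genes 39 had a row, and 4 entered the fit. KRT81, a hair-type keratin, rose with TGF-β in SOX4-shRNA cells, with 17.1 and 29.2 FPKM, against 7.58 and 5.02 FPKM untreated (1.70 ± 0.26, limma adjusted p = 0.00911), and was not called in the other comparisons. KRT75 rose with TGF-β in scrambled-shRNA cells, with a mean of 2.31 FPKM, against 0.974 FPKM untreated (0.76 ± 0.17, adjusted p = 0.0365). KRT7, a simple keratin, was abundant, at 1907 and 2315 FPKM in TGF-β-treated and 1349 and 962 FPKM in untreated SOX4-shRNA cells, against 1980 and 2118 FPKM in TGF-β-treated and 1557 and 1463 FPKM in untreated scrambled-shRNA cells. It was not called in the second fit (0.88 ± 0.23 with TGF-β in SOX4-shRNA cells, adjusted p = 0.137). The medians of the 4 keratins lay between -0.09 and 0.45 in the pairwise comparisons.

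Proteins that anchor keratin filaments moved singly. Of 19 such genes 6 entered the fit. COL17A1, the collagen of hemidesmosomes, rose with TGF-β in SOX4-shRNA cells (mean 203 against 126 FPKM untreated, 0.69 ± 0.10, limma adjusted p = 0.00779) and in scrambled-shRNA cells (271 against 197 FPKM, 0.46 ± 0.10, adjusted p = 0.0399), and fell on knockdown in untreated cells (126 against 197 FPKM, -0.64 ± 0.10, adjusted p = 0.0149). PPL, the plakin periplakin, had the opposite signs. It fell with TGF-β in SOX4-shRNA and scrambled-shRNA cells (-0.80 ± 0.11 and -0.97 ± 0.11) and rose on knockdown in untreated and TGF-β-treated cells (0.69 ± 0.11 and 0.86 ± 0.11, limma adjusted p of 0.00481 to 0.0151 over the 4). The list's median lay between -0.30 and 0.22. In the second fit LAMA3, a chain of the laminin below hemidesmosomes, rose with TGF-β in SOX4-shRNA cells (2.10 ± 0.12, limma adjusted p = 0.00511) and in scrambled-shRNA cells (1.65 ± 0.12, adjusted p = 0.00695), and fell on knockdown in untreated cells (-0.98 ± 0.12, adjusted p = 0.0418).

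Of 16 basal regulators and markers other than keratins 6 entered the fit. S100A2, a calcium-binding protein of basal cells, was the one called. It fell on knockdown, to a mean of 854 FPKM in untreated SOX4-shRNA cells, against 1814 FPKM in scrambled-shRNA cells (-1.08 ± 0.13, limma adjusted p = 0.00499), and to 1148 FPKM, against 2153 FPKM, with TGF-β (-0.91 ± 0.13, adjusted p = 0.00902). TP63, the transcription factor of basal epithelium, was not tested, since the readings of its main transcript were open. At the highest reading it stood at 469 and 443 FPKM in TGF-β-treated and 394 and 393 FPKM in untreated SOX4-shRNA cells, against 332 and 404 FPKM in TGF-β-treated and 304 and 328 FPKM in untreated scrambled-shRNA cells, each possibly 10 or 100 times lower. Of 17 luminal markers other than keratins 3 entered the fit. The tight junction gene CLDN4 rose with TGF-β in SOX4-shRNA cells (10.4 against 3.77 FPKM, 1.28 ± 0.22, adjusted p = 0.0141) and in scrambled-shRNA cells (11.2 against 4.35 FPKM, 1.19 ± 0.22, adjusted p = 0.0213), and AGR2, a secretory protein, fell on knockdown in TGF-β-treated cells (-0.94 ± 0.20, adjusted p = 0.0491). S100A2, CLDN4, AGR2, KRT75 and KRT81 were not called in the second fit, and COL17A1 was called there with TGF-β in SOX4-shRNA cells (adjusted p = 0.0369) but neither in scrambled-shRNA cells nor on knockdown.

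The genes whose pattern over the 8 libraries was most like that of a member were ranked by Pearson correlation of log2(FPKM + 1) over 5107 genes. The 8 libraries are 4 groups of 2, so the values describe likeness and carry no test, and those of KRT15 and KRT17 rest on the readings used. For KRT6A these were the mesenchymal filament gene VIM (r = 0.993), KRT6B (0.992) and the collagen gene COL1A1 (0.991). VIM had a mean of 336 FPKM in TGF-β-treated and 140 FPKM in untreated SOX4-shRNA cells, against 726 FPKM in TGF-β-treated and 440 FPKM in untreated scrambled-shRNA cells. For KRT6B they were GPX3 (0.995), COL1A1 (0.995) and CALML3 (0.993), for KRT17 the matrix genes BGN (0.995) and COL5A3 (0.994) and IGFBP4 (0.989), and for KRT16 MARCHF4 (0.993), FAM50A (0.99) and COL17A1 (0.985).

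KRT14 was most like RASSF10 (0.989), ELK3 (0.987) and the basement membrane collagen gene COL4A2 (0.985), KRT15 most like the WNT inhibitor gene DKK1 (0.981), QDPR (0.974) and YARS2 (0.969), and KRT5 most like CALM3 (0.99), SSU72 (0.986) and STK11IP (0.984). Among the members, KRT17, KRT6A and KRT6B had correlations of 0.96 to 0.99 with each other, and KRT16 of 0.84 to 0.94 with these 3. KRT14 had 0.84 with KRT16 but -0.16 with its partner KRT5, and KRT15 had 0.87 with KRT5 and -0.42 with KRT14.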

How the data were processed

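RNA of 8 HMLE libraries was measured by 75-nt single-read sequencing. Per the labels' protocols the kit was stranded and depleted ribosomal RNA, but the molecule is labelled polyA RNA, and which RNA was sequenced is unsure. TopHat2 2.0.9, Cufflinks 2.2.1, Cuffdiff and hg19 are named in the submitters' processing notes. The deposited table is taken as FPKM from these tools and the values, and other steps are not stated there.

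Of the cells, 34.1% had lost the decimal mark and 13.9% were damaged exponents, set to 0. For genes with 1 transcript of at least 600 nt, readings were settled by searching the transcript length, within 0.5 log10 of the annotated one, at which at least 6 of 8 cells were whole reads (within 0.003 reads plus rounding). At most 0.01 lengths of the window were to be expected to do as well by chance. This search gave 5120 of 5739 genes. A further 14 genes with every mark intact, KRT5 and KRT14 among them, were added. A contrast of a gene was then tested where readings within 0.2 log10 held a posterior of at least 0.95. This restoration and the fit were tested on simulated data.

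limma 3.58.1 (R 4.3.3, with an intensity trend in the variance prior) was run on log2(FPKM + 1) with 4 residual degrees of freedom. Symbols matched 47097 of 48175 transcripts (97.76%), and places are from GENCODE 44. Alternatives were 2 pseudocounts, 2 filters, 2 scalings, 2 variance priors, fewer groups, replicate blocks, all kept genes, readings without whole reads and leaving out each library. All members were named, with SOX4, KRT7, KRT81, TP63, up to 4 called genes per list and contrast by p, and 3 most alike genes per fitted member. Members and lists were chosen with earlier results of these data known. Some items the rule would name are not reported here.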

Additional observations from a re-analysis of the deposited data

Results flagged for a closer look

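KRT14 had estimates of opposite sign on knockdown in the 2 conditions. Both SOX4-shRNA libraries lay above both scrambled ones with TGF-β (0.12 on the log2(FPKM + 1) scale), and both lay below them in untreated cells (-0.30). Neither difference passed the test. The interaction was 0.42 ± 0.18 (limma, unadjusted p = 0.0465, adjusted p = 0.998), so the difference between conditions did not pass either.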

How the results depend on the processing

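Of 817 values for 40 member comparisons under other settings, 780 kept the side of the threshold, and 20 lost and 15 gained the call. The other 2 were called values that changed sign, both for KRT15 at the reading 10 times higher in TGF-β-treated SOX4-shRNA cells (1.70 with TGF-β and 1.15 on knockdown). Of the readings that were also whole reads, only this reading and the lower reading of KRT17 in untreated SOX4-shRNA cells were tried. The tally therefore does not cover the choice of reading for other values. The KRT5 interaction, not called at 0.07, turned to -0.03 on leaving out untreated scrambled replicate 1, and to -0.02 on leaving out replicate 2 of the untreated SOX4-shRNA cells. The falls of KRT15, KRT17, KRT6A and KRT6B on knockdown in untreated cells kept their call under every setting with a value. No scaling shifted the genes of the first fit by a median of over 0.0428. In the second fit 1 of the scalings moved KRT18 with TGF-β in scrambled-shRNA cells from -0.26 to -0.17.

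Counts of genes called moved more. They are given for TGF-β in SOX4-shRNA and scrambled-shRNA cells and for knockdown in untreated and TGF-β-treated cells, where the counts above were 400, 352, 218 and 205. Without a filter they were 263, 218, 141 and 127, over all kept genes 243, 201, 134 and 122, with readings without whole reads 147, 166, 135 and 103 among fewer genes, and with only the groups compared 106, 925, 73 and 135. At least 5 FPKM gave 140 and 122 for knockdown. Leaving out 1 library gave 176 to 264, 21 to 381, 43 to 223 and 33 to 201, where the lone library left in a group is assumed to vary like the others. The interaction had 0, and 19 over all kept genes, 1 without whole reads, 1 with the crossed block and 0 to 2 without 1 library. The cause was not tested.

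With a replicate block the 4 counts were 225, 149, 126 and 97, and KRT6A with TGF-β in scrambled-shRNA cells lost its call. Deviations of same-numbered libraries correlated positively within a treatment, at 0.45 between the untreated and 0.27 between the TGF-β-treated groups. Between treatments they correlated negatively, from -0.533 to -0.172. The numbers thus do not mark 1 block shared by all 4 groups. A crossed pairing, added after seeing this, gave 1124, 1182, 694 and 567. With it KRT17 passed with TGF-β in SOX4-shRNA cells (limma adjusted p = 0.0163). KRT14, KRT6B and KRT16 passed with TGF-β in scrambled-shRNA cells (limma adjusted p = 0.0249, 0.0322 and 0.0083). KRT16 also passed on knockdown in TGF-β-treated cells (limma adjusted p = 0.022). KRT19, at 0 to 8 reads, is limited by depth.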
